A study of Mus musculus with 4 samples.

Results

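The genes of the proteasome were followed in single-cell RNA libraries of the small-intestinal epithelium of adult C57BL/6J mice. The 2 Lats-deleted libraries came from Lrig1-CreERT2 Lats1fl/fl Lats2fl/fl mice, in which tamoxifen activates a Cre recombinase made in Lrig1-expressing cells, a population that includes crypt stem and progenitor cells. The 2 control libraries came from Lats1fl/fl Lats2fl/fl mice without Cre. Both groups received 2 mg of tamoxifen intraperitoneally and were taken at day 7, and cells were sorted as EpCAM+ and negative for CD45, TER119 and DAPI before inDrop barcoding, a droplet method. Cre is made only in Lrig1-expressing cells, so deletion is limited to these cells and their descendants. Because the controls carry no Cre, the deletion and the activated Cre itself cannot be told apart.

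The members were the 50 of 25289 gene columns whose symbols start with Psma, Psmb, Psmc, Psmd, Psme, Psmf or Psmg. Of these, 48 had enough counts to be tested over all kept cells. The untested members were Psma8, an alpha subunit of the testis with 5 and 3 counts in the Lats-deleted libraries and 1 and 1 count in the control libraries, and Psmc3ip. Psmc3ip shares the prefix but encodes a meiotic recombination protein, not a part of the proteasome, and had 4 and 21 counts in the Lats-deleted libraries and 2 and 3 counts in the control libraries.

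The proteasome degrades proteins marked with ubiquitin. Its 20S core is a barrel of alpha and beta rings, in which the beta subunits Psmb5, Psmb6 and Psmb7 cut the substrate, and a 19S cap recognises, unfolds and feeds the substrate into the core. Interferon-gamma induces 3 alternative catalytic subunits, Psmb8, Psmb9 and Psmb10, which take the places of Psmb5, Psmb6 and Psmb7 in newly built cores and form the immunoproteasome, together with the activator subunits Psme1 and Psme2 of the PA28 cap. The immunoproteasome shapes the peptides that are shown on MHC class I, and intestinal epithelial cells can carry it at steady state. The constitutive genes of the core and cap are known to be raised together by the transcription factor Nfe2l1 when proteasome activity is short.

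The kept cells numbered 726 and 1289 in the Lats-deleted libraries and 774 and 515 in the control libraries, with 3562565 and 5826856 counts in the Lats-deleted libraries and 1603796 and 1228504 counts in the control libraries. The median cell had 3715.5 and 3848 counts in the Lats-deleted libraries and 1708 and 1995 counts in the control libraries. Its mitochondrial share was 3.64% and 3.90% in the Lats-deleted libraries and 9.55% and 6.84% in the control libraries. Lats1 had 6.93 and 9.26 CPM (counts scaled by TMM-adjusted library totals) in Lats-deleted libraries, against 23.4 and 35.2 in controls (log2 fold change -1.83, adjusted p = 0.0087, edgeR). Lats2 had 27.2 and 20.1 CPM in Lats-deleted libraries, against 9.20 and 10.5 CPM in controls (log2 fold change 1.26, adjusted p = 0.0305, edgeR). Which part of the transcript was counted is not given in the sources used here, so reads from outside the deleted exons cannot be told apart and Lats2 does not check the labels. Epithelial markers were present in all libraries (Cdh1 at 865 and 1013 plain CPM in Lats-deleted libraries and 390 and 353 in controls), while 18 enterocyte markers summed to 2409 and 1559 CPM in Lats-deleted libraries and 30405 and 29315 CPM in controls. Markers of regenerative cells, 14 genes, summed to 19055 and 14520 CPM in Lats-deleted libraries and 82.3 and 91.2 CPM in controls. Lats-deleted library 1 stood apart by a group of stromal-like cells (15 stromal genes at 1309 CPM, against 210 in Lats-deleted library 2 and 68.0 and 61.0 in controls). Lats-deleted library 2 stood apart by stomach-like cells (11 stomach genes at 10389 CPM, against 97.1 in Lats-deleted library 1 and 91.0 and 35.8 in controls), so results are also given without these cells. Pairs of libraries shared 4 to 12 cell barcodes.

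Over all kept cells, calls were made in both directions, in different groups of proteasome genes. All 3 immunoproteasome subunits, both interferon-inducible PA28 subunits and the Psme2 retrocopy Psme2b were lower in Lats-deleted libraries, and 7 of the 17 subunits of the 19S cap were higher. None of the 14 constitutive subunits of the 20S core and none of the 7 assembly chaperones passed the threshold of an adjusted p under 0.05 (edgeR quasi-likelihood test, Benjamini-Hochberg adjustment over 12561 genes). In counts, 7 of 48 members were higher (14.6%), where 15.3% of all genes tested were called higher, and 6 were lower (12.5%), where 15.5% of all genes were called lower. The 13 calls in either direction (27.1%) were close to the 30.8% of all genes, so the members as a whole were not called more often than other genes. The fold change was positive for 38 members and negative for 10, with a median log2 fold change of 0.45, beside 0.046 over all genes tested. The groups did not overlap for 37 members, 30 of them higher and 7 lower in Lats-deleted libraries, and overlapped for 11; over all genes, 68.8% did not overlap. In sums over a library, fewer cells of a type and less RNA per cell cannot be told apart. The labels do not say whether the libraries are separate animals, so a p-value here reflects how much the libraries vary and nothing beyond.

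With plain library totals in place of TMM scaling, the median log2 fold change of all genes moved to 0.30 and that of the members to 0.70. Under that scaling 23 members were higher and 6 lower, beside 7 and 6 with TMM scaling. The share of all genes called under plain totals was not counted, so the 23 cannot be set against it.

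**Figure D1:**
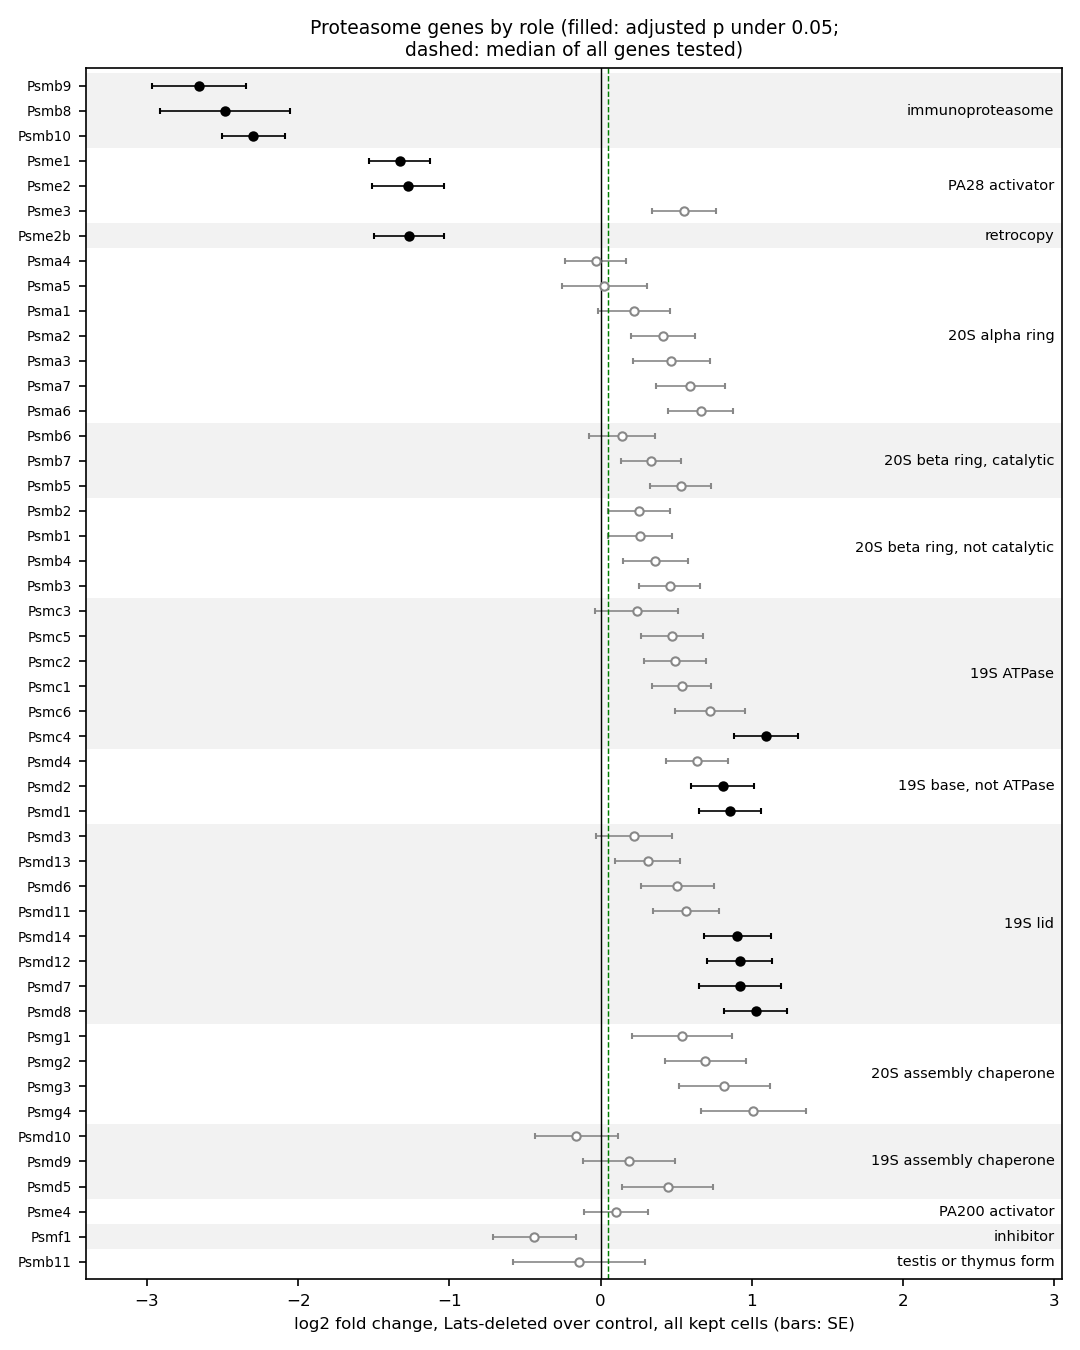
Log2 fold change (Lats-deleted over control, all kept cells, horizontal axis) of the 48 tested proteasome genes, grouped by role, with SE bars, filled points for an adjusted p under 0.05 and a dashed line at the median of all genes tested (0.046). The immunoproteasome subunits lie between -2.66 and -2.30, Psme1, Psme2 and Psme2b between -1.33 and -1.27, and the 17 subunits of the 19S cap between 0.22 and 1.09.

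The promoters of the immunoproteasome subunits and Psme1, which were lower, and of Psmd12, a 19S lid subunit that was higher, are shown with matches to motifs of the pathways named above. Sequences are from RefSeq on GRCm38.p6, the build of mm10, and run from 250 bases before to 50 bases after the RefSeq start, from which positions are counted. The GENCODE M21 annotation starts each of these genes further upstream, so positions would differ there. Its starts are 34197721 for Psmb8, 34187764 for Psmb9, 105938444 for Psmb10, 55578123 for Psme1 and 107479484 for Psmd12. The windows of Psmb8, Psmb9 and Psme1 lie wholly inside the genes as annotated there. All windows are written 5′ to 3′ on the strand of the gene, in lower case with motif matches in capitals. Psmb8 is at chr17:34197945-34198244 (plus strand), Psmb9 at chr17:34187281-34187580 (minus strand), Psmb10 at chr8:105938343-105938642 (minus strand), Psme1 at chr14:55578244-55578543 (plus strand) and Psmd12 at chr11:107479278-107479577 (plus strand).
Psmb8: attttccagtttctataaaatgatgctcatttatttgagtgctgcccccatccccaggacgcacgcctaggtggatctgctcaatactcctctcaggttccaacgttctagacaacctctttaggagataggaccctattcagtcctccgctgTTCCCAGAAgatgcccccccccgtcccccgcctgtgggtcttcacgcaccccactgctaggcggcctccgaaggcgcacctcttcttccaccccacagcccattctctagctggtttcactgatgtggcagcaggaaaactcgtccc
Psmb9: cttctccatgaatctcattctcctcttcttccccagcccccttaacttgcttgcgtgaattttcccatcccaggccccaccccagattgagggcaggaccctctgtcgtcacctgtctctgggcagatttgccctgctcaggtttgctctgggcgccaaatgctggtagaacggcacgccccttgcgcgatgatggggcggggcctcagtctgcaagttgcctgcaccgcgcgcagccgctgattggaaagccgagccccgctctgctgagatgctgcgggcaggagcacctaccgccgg
Psmb10: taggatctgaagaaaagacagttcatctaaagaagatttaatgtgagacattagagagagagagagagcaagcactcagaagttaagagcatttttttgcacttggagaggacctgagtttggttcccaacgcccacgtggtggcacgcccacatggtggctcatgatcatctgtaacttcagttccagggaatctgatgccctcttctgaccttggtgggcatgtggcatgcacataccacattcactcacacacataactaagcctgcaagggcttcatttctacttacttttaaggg
Psme1: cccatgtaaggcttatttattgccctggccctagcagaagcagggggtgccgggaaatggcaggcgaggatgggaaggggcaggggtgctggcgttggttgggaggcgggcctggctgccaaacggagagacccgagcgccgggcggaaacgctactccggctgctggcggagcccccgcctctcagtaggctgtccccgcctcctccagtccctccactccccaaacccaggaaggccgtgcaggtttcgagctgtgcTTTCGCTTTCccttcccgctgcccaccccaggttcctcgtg
Psmd12: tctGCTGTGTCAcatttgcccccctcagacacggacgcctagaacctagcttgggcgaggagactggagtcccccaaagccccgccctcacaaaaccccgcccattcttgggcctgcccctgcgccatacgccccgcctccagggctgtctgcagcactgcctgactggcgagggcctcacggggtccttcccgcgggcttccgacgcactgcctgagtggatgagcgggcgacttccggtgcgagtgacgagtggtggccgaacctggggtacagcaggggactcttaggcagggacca

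The capitals in Psmb8 match a gamma-activated site, TTCNNNGAA, 97 bases before the start. The capitals in Psme1 match an interferon-stimulated response element, searched as GAAA, any 2 bases and GAAA, on the opposite strand, 9 bases after the start. The capitals in Psmd12 match the core of the antioxidant response element, TGACNNNGC, to which Nfe2l1 and Nfe2l2 bind, on the opposite strand, 247 bases before the start. No match to any of the 3 motifs was found in the windows of Psmb9 and Psmb10, which says only that these letters are not in these windows. The Psmb9 window shares 275 bases with that of Tap1, a peptide transporter gene that runs in the other direction.

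Both strands of the promoters of 42 of the 50 members, and of 27025 genes in all, were searched, and no match overlapped another. The gamma-activated site was found in 3 of 42 members (7.14%; Psmb8, Psmd2 and Psmg1) and in 9.55% of all promoters. The interferon-stimulated response element was found in 5 members (11.9%; Psmb3, Psmd4, Psmd9, Psme1 and Psmg4), against 3.99% of all promoters. The antioxidant core was found in 6 members (14.3%; Psmb5, Psmb6, Psmc6, Psmd12, Psmd9 and Psme4), against 14.0% of all promoters. A match is a description of the letters, not a bound site, and members with a match did not move one way: Psme1 was lower, while Psmb3 and Psmd4 were not called.

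Each immunoproteasome subunit replaces 1 constitutive catalytic subunit, and the pairs are given together. All 3 immunoproteasome subunits were lower, and none of the 3 subunits they replace was called. Psmb8, the chymotrypsin-like subunit that replaces Psmb5, had 80.6 and 31.7 CPM in Lats-deleted libraries, against 309 and 314 CPM in controls. Both Lats-deleted libraries lay far below both controls, and Lats-deleted library 1 lay above library 2. The mean was 56.1 ± 34.6 CPM in Lats-deleted libraries and 312 ± 3.09 CPM in controls (SD, n = 2 each). Relative to controls this was a change of -2.48 on the log2 scale (SE 0.43, adjusted p = 0.00621, edgeR). Its counterpart Psmb5 had 189 and 205 CPM in Lats-deleted libraries, against 142 and 131 CPM in controls. The groups did not overlap, but the increase did not pass the threshold (log2 fold change 0.53, SE 0.203, adjusted p = 0.0929, edgeR).

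Psmb9, which replaces the caspase-like subunit Psmb6, had 25.7 and 14.6 CPM in Lats-deleted libraries, against 115 and 136 CPM in controls. This was the lowest fold among the members, with no overlap of the groups (log2 fold change -2.66, SE 0.311, adjusted p = 0.00133, edgeR). Psmb6 had 128 and 148 CPM in Lats-deleted libraries, against 113 and 138 CPM in controls. The groups overlapped and no difference was detectable (log2 fold change 0.14, SE 0.217, adjusted p = 0.667, edgeR). Psmb9 and Tap1 overlap by 212 bases on opposite strands, and strand use in counting is not given, so reads in that stretch cannot be told apart.

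Psmb10, which replaces the trypsin-like subunit Psmb7, had 52.1 and 49.7 CPM in Lats-deleted libraries, against 259 and 241 CPM in controls. It had the smallest spread between Lats-deleted libraries of the 3 immunoproteasome subunits and the smallest adjusted p (log2 fold change -2.30, SE 0.206, adjusted p = 0.000498, edgeR). Psmb7 had 131 and 145 CPM in Lats-deleted libraries, against 112 and 107 CPM in controls. The groups did not overlap, without a call (log2 fold change 0.33, SE 0.199, adjusted p = 0.246, edgeR). As linear ratios the 3 immunoproteasome subunits were 5.58-fold (Psmb8), 6.31-fold (Psmb9) and 4.91-fold (Psmb10) lower. Without either control library in turn, Psmb8 lost its call, as did every called PA28 and 19S gene, while Psmb9 and Psmb10 kept theirs; 2 members then remained called lower and 0 higher.

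**Figure D2:**
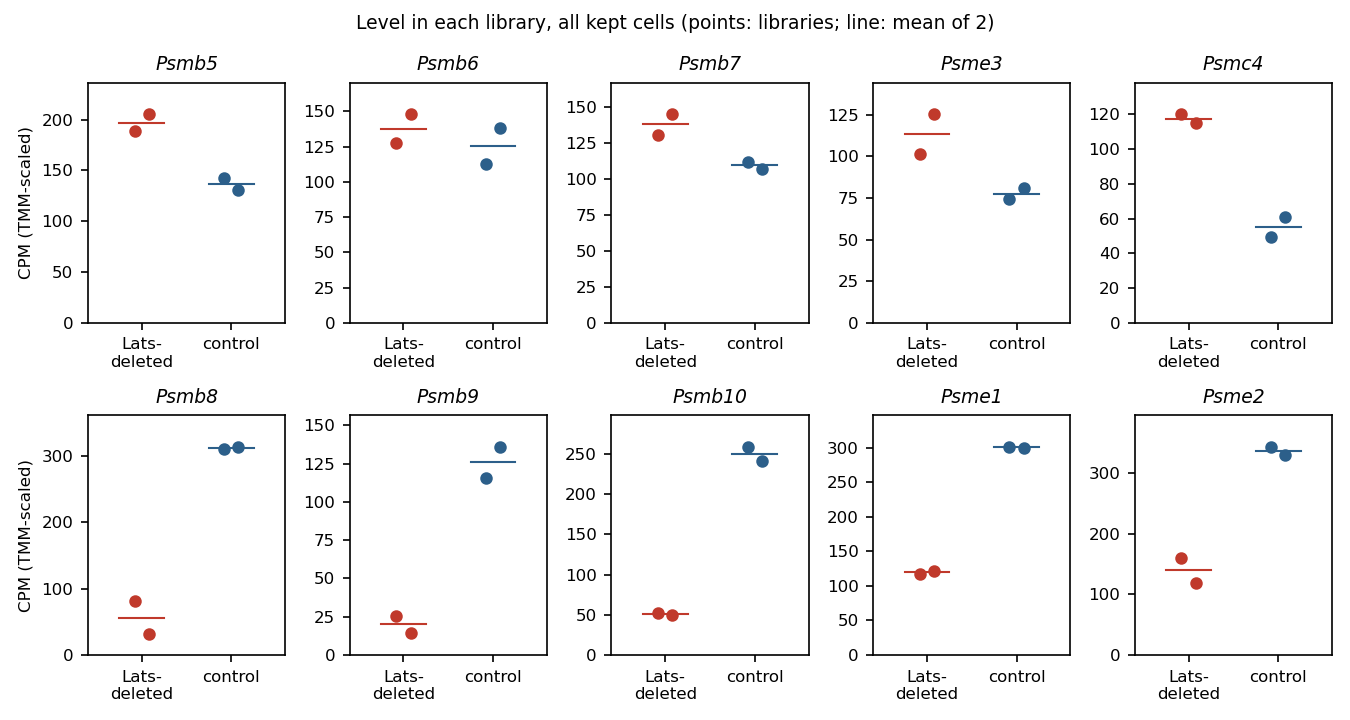
TMM-scaled CPM of 10 proteasome genes in each library (vertical axes from 0, points for the 2 libraries of a group, lines for their mean), Lats-deleted left and control right. Psmb8, Psmb9, Psmb10, Psme1 and Psme2 lie well below the controls in both Lats-deleted libraries, Psmc4 lies above them (120 and 115 CPM against 49.6 and 60.6 CPM), and Psmb6 overlaps.

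Leukocytes also carry the immunoproteasome and could pass a sort. The 23 leukocyte markers with a column summed to 151 and 122 plain CPM in Lats-deleted libraries and 223 and 608 CPM in controls, with 3 and 1 of them at 0 in Lats-deleted libraries and 4 and 5 in controls. Ptprc, which encodes the CD45 used in the sort, had 17.1 and 15.3 CPM in Lats-deleted libraries and 19.3 and 18.7 CPM in controls. Cd3e had 0 and 1.20 CPM in Lats-deleted libraries and 1.87 and 0 CPM in controls, and Tyrobp 0 and 0.172 CPM in Lats-deleted libraries and 0 in both controls. Gzma, a granzyme of cytotoxic lymphocytes, had 1.12 and 0 CPM in Lats-deleted libraries and 10.6 and 3.26 CPM in controls, and the chemokine Ccl5 had 11.5 and 2.40 CPM in Lats-deleted libraries and 7.48 and 0.814 CPM in controls. Most of the sum in controls was Lyz2, a lysozyme of myeloid cells, with 5.33 and 28.8 CPM in Lats-deleted libraries and 114 and 532 CPM in controls. Coro1a had 1.40 and 1.89 CPM in Lats-deleted libraries and 35.5 and 26.9 CPM in controls, and Laptm5, which went the other way, 48.6 and 46.9 CPM in Lats-deleted libraries and 2.49 and 3.26 CPM in controls. The sum of the whole list was higher in controls through Lyz2, and the sums of the other markers overlapped between the groups. The 9 Paneth markers summed to 86.5 and 426 CPM in Lats-deleted libraries and 2763 and 4939 CPM in controls. Whether Lyz2 counts came from Paneth cells, and the part of leukocytes in the result, were not tested. In Lats-deleted library 1, the stromal-like cluster held 62 of the 314 Psmb8 counts (19.7%) in 9.78% of the cells. Without stromal-like and stomach-like cells, Psmb8 was at 74.7 and 38.0 plain CPM in Lats-deleted libraries.

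Among the caps, the PA28 subunits Psme1 and Psme2 were called lower, and the called increases were all in 19S subunits. Psme1, the alpha subunit of the PA28 cap that opens the core without ubiquitin, had 117 and 122 CPM in Lats-deleted libraries, against 302 and 300 CPM in controls. The libraries of each group lay within a few CPM of each other and the groups were far apart (log2 fold change -1.33, SE 0.202, adjusted p = 0.00369, edgeR), a 2.51-fold lower level. Psme2, the beta subunit, had 160 and 119 CPM in Lats-deleted libraries, against 343 and 330 CPM in controls. It was 2.42-fold lower, with no overlap (log2 fold change -1.27, SE 0.236, adjusted p = 0.00788, edgeR). Psme2b, a retrocopy of Psme2 on chromosome 11, was lower by a like amount (151 and 115 CPM in Lats-deleted libraries, against 333 and 308 CPM in controls; log2 fold change -1.27, adjusted p = 0.00741, edgeR). In 1196 of the 1295 cells with a count of either gene (92.4%), Psme2 and Psme2b had equal counts. The reads were thus split or shared between near-identical copies, and the genes cannot be told apart. Psme2b also shares 837 bases on the same strand with Gm12185, another counted gene, and reads there cannot be told apart.

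Psme3 encodes the third PA28 subunit, which forms a nuclear cap of its own and is not known as an interferon target. It had 102 and 125 CPM in Lats-deleted libraries, against 74.3 and 80.9 CPM in controls. Both Lats-deleted libraries were above both controls, but the threshold was missed (log2 fold change 0.55, SE 0.213, adjusted p = 0.095, edgeR). Psme4, the PA200 cap, had 66.2 and 79.3 CPM in Lats-deleted libraries, against 72.2 and 63.3 CPM in controls, with overlapping groups (adjusted p = 0.755, edgeR). Psmf1, whose product PI31 binds the core and was first described as an inhibitor, had 28.0 and 21.6 CPM in Lats-deleted libraries, against 36.8 and 29.9 CPM in controls. Its groups did not overlap, and it was not called (log2 fold change -0.44, adjusted p = 0.271, edgeR).

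The 19S cap was the one group with called increases. All 17 of its subunits had a positive fold change, and the median was 0.64 on the log2 scale. The groups did not overlap for 15 of the 17, where 68.8% of all genes did not overlap. The largest increase was in Psmc4, 1 of the 6 ATPases that unfold the substrate, with 120 and 115 CPM in Lats-deleted libraries, against 49.6 and 60.6 CPM in controls. The groups were far apart, a 2.14-fold higher level (log2 fold change 1.09, SE 0.211, adjusted p = 0.00921, edgeR). The other 5 ATPases had log2 fold changes between 0.24 and 0.73 without a call, Psmc6 being closest to the threshold (adjusted p = 0.0548, edgeR).

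In the 19S lid, which removes ubiquitin from the substrate, 4 of 8 subunits were higher, where 15.3% of all genes were called higher. Psmd8, a lid subunit needed for complete lid assembly, had 274 and 273 CPM in Lats-deleted libraries, against 142 and 127 CPM in controls, a 2.04-fold higher level (log2 fold change 1.03, SE 0.207, adjusted p = 0.011, edgeR). Psmd14, the deubiquitinase of the lid, had 96.7 and 119 CPM in Lats-deleted libraries, against 62.3 and 52.7 CPM in controls (log2 fold change 0.90, SE 0.222, adjusted p = 0.0228, edgeR). The Lats-deleted libraries were above the controls for both genes. Psmd7, the partner of the deubiquitinase, had 110 and 138 CPM in Lats-deleted libraries, against 79.3 and 51.0 CPM in controls (log2 fold change 0.92, SE 0.272, adjusted p = 0.0429, edgeR). Psmd12, a scaffold subunit of the lid, had 91.1 and 110 CPM in Lats-deleted libraries, against 55.2 and 51.0 CPM in controls (log2 fold change 0.92, SE 0.213, adjusted p = 0.0185, edgeR). Psmd7 was the least stable of these calls, being lost under 7 of 16 alternatives, among them cells of at most 15% mitochondrial counts. The other 4 lid subunits had log2 fold changes between 0.22 (Psmd3, whose groups overlapped) and 0.57 (Psmd11).

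The 3 base subunits that are not ATPases dock ubiquitin and its shuttle proteins. Psmd1 had 237 and 254 CPM in Lats-deleted libraries, against 130 and 141 CPM in controls (log2 fold change 0.85, SE 0.205, adjusted p = 0.0208, edgeR). Psmd2 had 174 and 206 CPM in Lats-deleted libraries, against 108 and 109 CPM in controls (log2 fold change 0.81, SE 0.208, adjusted p = 0.0273, edgeR). Both were above both controls in each Lats-deleted library. Psmd4, the ubiquitin receptor, had 165 and 161 CPM in Lats-deleted libraries, against 97.7 and 112 CPM in controls, just short of a call (log2 fold change 0.64, adjusted p = 0.0543, edgeR). Psmd1 shares 12945 bases with Htr2b on the opposite strand, so its reads cannot be fully separated from that gene's.

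The 14 constitutive subunits of the 20S core had smaller folds, with a median log2 fold change of 0.35. With edgeR 0 were called and 3 had an unadjusted p under 0.05, and DESeq2 called 0. The fold was positive for 13. The groups did not overlap for 10 of the 14, where 68.8% of all genes did not overlap. In the alpha ring, which gates the barrel, values lay between -0.034 for Psma4 and 0.66 for Psma6 (adjusted p = 0.0568, edgeR). Psma6 had 123 and 103 CPM in Lats-deleted libraries, against 66.5 and 76.5 CPM in controls. Psma4 had 197 and 217 CPM in Lats-deleted libraries, against 218 and 205 CPM in controls, with overlapping groups. The 4 beta subunits without catalytic activity lay between 0.25 (Psmb2) and 0.46 (Psmb3), each without overlap.

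The chaperones that build the proteasome had low levels, and 0 of 7 were called by edgeR (3 at an unadjusted p under 0.05) or by DESeq2. The 4 chaperones of the 20S core, Psmg1 to Psmg4, had log2 fold changes between 0.54 and 1.01 with no overlap. Psmg4 had 26.9 and 33.6 CPM in Lats-deleted libraries, against 19.1 and 10.5 CPM in controls (adjusted p = 0.0692, edgeR). The 3 chaperones of the 19S base, Psmd5, Psmd9 and Psmd10, lay between -0.16 and 0.44 and all overlapped. Over all genes, 68.8% did not overlap. Psmb11, the catalytic subunit of the thymus, was close to absent, with 4.62 and 5.20 CPM in Lats-deleted libraries and 6.37 and 4.39 CPM in controls.

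Summed over the 31 constitutive subunits of the core and cap, proteasome transcripts made up 0.509% and 0.558% of all counts in Lats-deleted libraries, against 0.320% in both controls. The 3 immunoproteasome subunits together made up 173 and 101 plain CPM in Lats-deleted libraries, against 602 and 640 CPM in controls. The 3 subunits that they replace made up 490 and 527 plain CPM in Lats-deleted libraries, against 323 and 348 CPM in controls. The ratio of the immunoproteasome sum to that of the replaced subunits was 0.354 and 0.193 in Lats-deleted libraries, against 1.86 and 1.84 in controls. Counts were not divided by transcript length, so the ratio is compared between libraries and says nothing of how many cores carry either subunit. With 2 libraries against 2, an exact permutation test of these sums cannot reach 0.05, and none is given.

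The libraries differ in which cells they hold, so the same sums were taken in each cluster of a library with at least 20 cells. Clusters were made without the proteasome genes and named from markers, and their names are approximate. No enterocyte-like cluster held 20 Lats-deleted cells of 1 library, so these cells enter only in the class below. The immunoproteasome sum ranged from 42.8 to 577 plain CPM (median 96.5) over 14 cluster and library pairs of the Lats-deleted libraries and from 250 to 854 CPM (median 658) over 15 such pairs of the controls. The 577 CPM belonged to the stromal-like cells of Lats-deleted library 1. Without them the Lats-deleted pairs ended at 254 CPM, against a lowest control value of 250 CPM. The replaced subunits ranged from 354 to 615 CPM in Lats-deleted pairs and from 137 to 694 CPM in control pairs, so these ranges overlapped widely.

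The 2 regenerative-like clusters, present in Lats-deleted libraries almost alone, had low immunoproteasome sums in both libraries. The first had 92.4 and 118 plain CPM in Lats-deleted libraries 1 and 2, and the second 79.1 and 73.0 CPM, with ratios to the replaced subunits of 0.201 and 0.252 in the first and 0.139 and 0.137 in the second. The lowest sums were in Lats-deleted library 2, at 47.7 and 42.8 CPM in its 2 stomach-like clusters and 53.8 CPM in a further unnamed cluster of 369 cells. In the smaller stomach-like cluster, Psmb8 had no count. The cycling progenitor-like cluster had 101 and 71.0 CPM in Lats-deleted libraries 1 and 2. Of the clusters with at least 20 Lats-deleted cells in a library, stromal-like cells aside, the highest sums were in 2 unnamed ones, with 247 and 192 CPM in the one led by Wfdc18 and Duox2 and 254 and 227 CPM in the one led by Clca4a and Reg3b. Both were below the 949 and 854 CPM of the few enterocyte-like cells of the Lats-deleted libraries, summed over their clusters.

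In controls, the immunoproteasome sum of the enterocyte-like clusters lay between 250 and 854 plain CPM (median 722), with ratios between 0.891 and 3.67. The 250 CPM belonged to 1 cluster (Ada and Apoa4 among its leading genes) in control library 1, which had 568 CPM in control library 2, and the other pairs lay at 648 CPM and above. An unnamed control cluster of crypt genes (Cps1, Aldh1b1 and Myb among its leading genes) had the highest replaced subunits of the controls, at 694 and 531 CPM, with an immunoproteasome sum of 400 and 457 CPM. Its ratios, 0.576 and 0.860, were the lowest of the control clusters. Goblet and Paneth-like control cells had 387 and 251 CPM. Enterocyte-like cells were most of the control libraries, and leaving them out of all libraries left an immunoproteasome sum of 151 and 94.3 CPM in Lats-deleted libraries, against 388 and 362 CPM in controls. The ratio in these remaining cells was 0.307 and 0.178 in Lats-deleted libraries, against 0.821 and 1.00 in controls, so the ranges still did not overlap and the gap was smaller than over all cells.

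**Figure D3:**
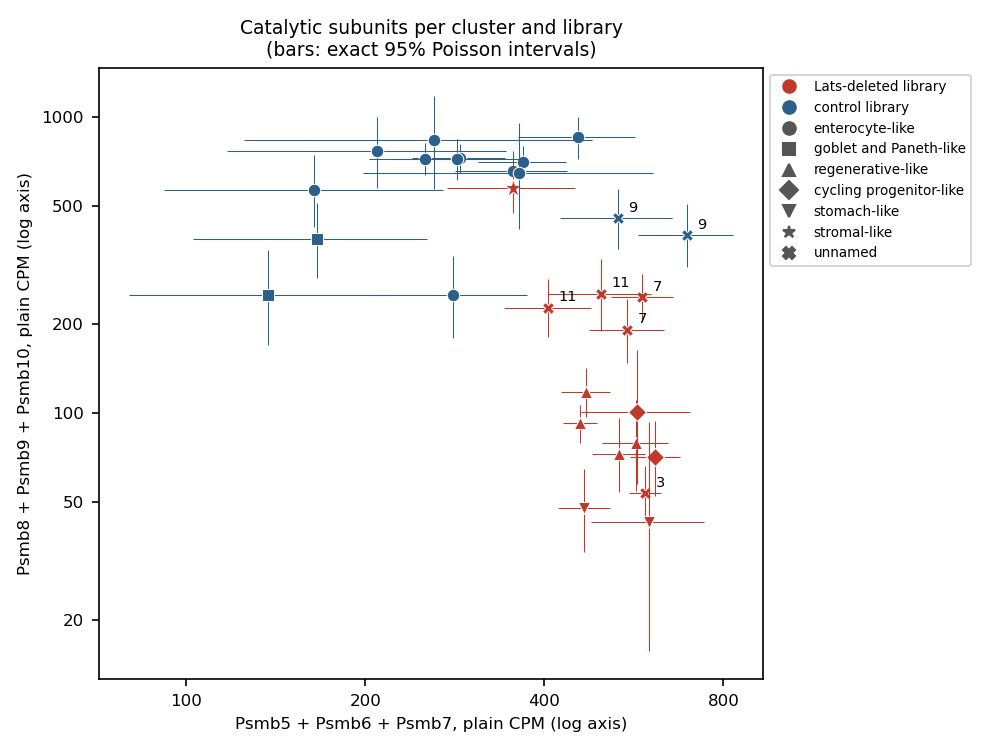
Summed plain CPM of Psmb8, Psmb9 and Psmb10 (vertical, log axis) against that of Psmb5, Psmb6 and Psmb7 (horizontal, log axis) for each cluster of a library with at least 20 cells. Bars are exact 95% Poisson intervals, which cover counting error only, colours mark the group and shapes the cluster name. Lats-deleted clusters lie low, from 42.8 to 254 CPM of the immunoproteasome apart from the stromal-like cells at 577 CPM. Control clusters lie higher, from 250 to 854 CPM. On the horizontal axis the ranges overlap, at 354 to 615 CPM for Lats-deleted and 137 to 694 CPM for control clusters.

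The comparison was repeated within 2 classes of cells. In the progenitor-like class, which was held by different clusters in each group (clusters named stem-like or cycling progenitor-like; 30 and 135 cells in Lats-deleted libraries, 77 and 58 cells in controls), the 3 immunoproteasome subunits and Psme1 were lower in Lats-deleted libraries and Psmc4 was higher. Of 39 members tested, 1 was higher and 4 were lower (12.8% in either direction), where 22.7% of the 3241 genes tested were called, 11.6% higher and 11.1% lower. Psmb9 had 14.4 and 22.2 CPM in Lats-deleted progenitor-like cells, against 112 and 130 CPM in controls (log2 fold change -2.55, SE 0.473, adjusted p = 0.00578, edgeR). Psmb10 had 50.6 and 53.0 CPM in Lats-deleted cells, against 217 and 173 CPM in controls (log2 fold change -1.89, SE 0.39, adjusted p = 0.00941, edgeR). The groups were far apart for both genes. Psmb8 had 123 and 32.5 CPM in Lats-deleted cells, against 201 and 303 CPM in controls (log2 fold change -1.99, SE 0.603, adjusted p = 0.0431, edgeR), with a wide spread between the Lats-deleted libraries. Psme1 had 86.7 and 109 CPM in Lats-deleted cells, against 321 and 424 CPM in controls (log2 fold change -1.87, SE 0.333, adjusted p = 0.0048, edgeR).

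Psmc4 was the 1 higher member in this class, with 238 and 181 CPM in Lats-deleted progenitor-like cells, against 32.1 and 69.3 CPM in controls (log2 fold change 2.02, SE 0.486, adjusted p = 0.0176, edgeR). It rested on 33 and 106 counts in Lats-deleted cells and 4 and 8 counts in controls. Psme2 was not called here (108 and 101 CPM in Lats-deleted cells, against 161 and 156 CPM in controls; log2 fold change -0.61, SE 0.375, adjusted p = 0.287, edgeR). The 14 core subunits divided evenly into 7 positive and 7 negative folds, while 16 of the 17 cap subunits were positive. The constitutive subunits made up 0.543% and 0.598% of counts in Lats-deleted progenitor-like cells, against 0.491% and 0.455% in controls. All control cells of the class (77 and 58) were in a stem-like cluster, which held 2 and 5 of the Lats-deleted cells. The other Lats-deleted cells were in cycling clusters, which held 0 control cells. Of these, 1 cluster held 95 cells of Lats-deleted library 2 and 0 of Lats-deleted library 1. It also had 5 stomach markers 1.5-fold above other cells. Leaving this cluster out left 30 and 40 Lats-deleted cells in the class, and 2 members were then called higher and 4 lower. The stem-like cluster had 5 of 13 stem markers and 9 of 17 cycling markers 1.5-fold above other cells, against 17 of 17 cycling markers in each cycling cluster. Stem-like control cells, with some cycling markers raised, are thus set mostly against cycling Lats-deleted cells. The genotype and this difference of cell state cannot be told apart here. The Psmb8 call was lost under 6 of 13 alternatives. Psmb9 lost its call without either control library (highest adjusted p = 0.22, edgeR), Psmb10 with DESeq2, without control library 1 and with cells thinned to 1000 counts, and Psmc4 with DESeq2 and without control library 1 (highest adjusted p = 0.156). Psme1 stayed called under all 14 alternatives run for it.

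In the enterocyte-like class (39 and 21 cells in Lats-deleted libraries, 632 and 404 cells in controls), none of the 41 tested members was called. In this class 13 of 5919 genes were called (0.22%, with 0.0507% higher and 0.169% lower), and 450 genes had an unadjusted p under 0.05. Of the members, 4 had an unadjusted p under 0.05, and DESeq2 called 0. The groups did not overlap for 17 of the 41 members, 11 higher and 6 lower, where 40.0% of all genes did not overlap. Psmb8 had 398 and 335 CPM in Lats-deleted enterocyte-like cells, against 327 and 351 CPM in controls (log2 fold change 0.14, SE 0.262, adjusted p = 0.976, edgeR). Psmb9 had 183 and 186 CPM in Lats-deleted cells, against 122 and 152 CPM in controls (log2 fold change 0.43, SE 0.342, adjusted p = 0.852, edgeR). Neither Lats-deleted library lay below the control range for these genes. Psmb10 had 430 and 354 CPM in Lats-deleted cells, against 271 and 274 CPM in controls (log2 fold change 0.55, SE 0.261, adjusted p = 0.607, edgeR). The ratio of the immunoproteasome to the replaced subunits was 2.24 and 3.62 in Lats-deleted cells, against 2.27 and 2.12 in controls. The Lats-deleted sums rest on few counts (37 and 18 of Psmb8), and whether these cells had lost Lats1 and Lats2 was not tested.

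The difference between the classes was tested directly, as an interaction of class and genotype, with each library as a block. Of 39 members tested, 4 were called (10.3%), where 12.4% of 4050 genes were called, so members were not called more often than other genes. Psmb8 (-2.09, SE 0.516, adjusted p = 0.00273, edgeR), Psmb9 (-3.09, SE 0.691, adjusted p = 0.000776, edgeR), Psmb10 (-2.44, SE 0.518, adjusted p = 0.000379, edgeR) and Psme1 (-1.96, SE 0.479, adjusted p = 0.00237, edgeR) had a lower log2 fold change in progenitor-like than in enterocyte-like cells. The replaced subunits were not called, with differences of 0.39 for Psmb5 (SE 0.562), -0.89 for Psmb6 (SE 0.56) and -0.27 for Psmb7 (SE 0.566). Psme2 (-0.18, SE 0.504) and Psmc4 (1.37, SE 0.735) were not called either. Of the 4 calls, 2 were kept without Lats-deleted library 1, 3 without Lats-deleted library 2, 2 without control library 1 and 2 without control library 2. The classes hold different cell states in each group, as given above, and whether the Lats-deleted enterocyte-like cells had lost Lats1 and Lats2 was not tested.

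**Figure D4:**
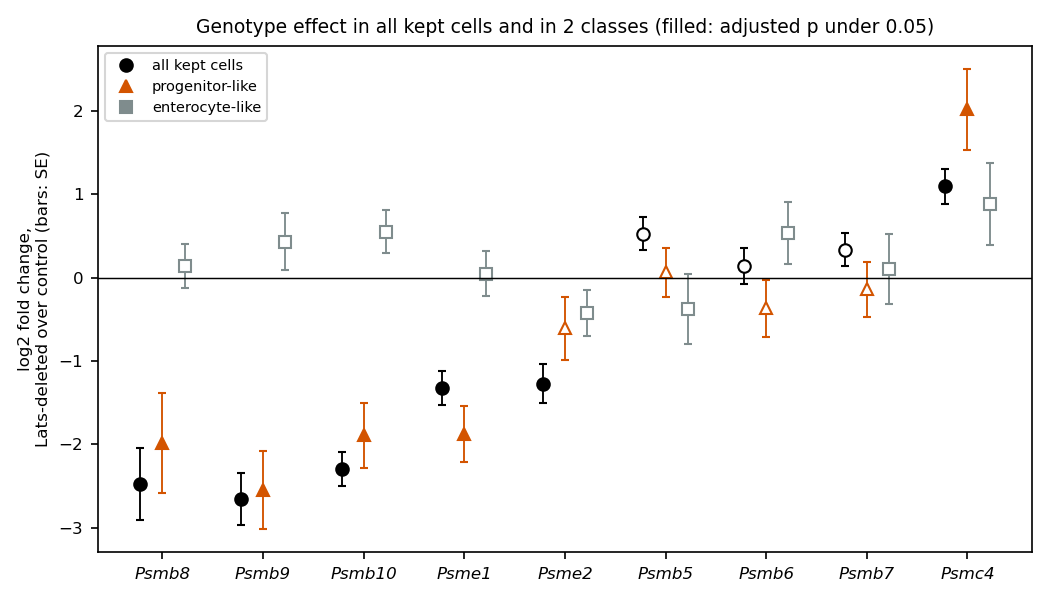
Log2 fold change (Lats-deleted over control, vertical axis, SE bars) of 9 proteasome genes in all kept cells, progenitor-like cells and enterocyte-like cells, filled where the adjusted p was under 0.05. The immunoproteasome subunits and Psme1 are between -2.66 and -1.33 in all kept cells and in progenitor-like cells, and between 0.047 and 0.55 in enterocyte-like cells.

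Genes around the proteasome were counted in 7 lists over all kept cells. In MHC class I presentation, the pathway fed by the immunoproteasome, 6 of 15 tested genes were lower and 0 higher. The 6 were 40.0% of the list, where 15.5% of all genes were lower. On the lower side 13 did not overlap, where 68.8% of all genes did not overlap, higher and lower counted together. The median log2 fold change was -0.89. B2m, the invariant chain of MHC class I, had 1228 and 537 CPM in Lats-deleted libraries, against 3268 and 3138 CPM in controls (log2 fold change -1.86, adjusted p = 0.0137, edgeR). H2-T3, a class I-like molecule of the gut epithelium, had 47.7 and 40.3 CPM in Lats-deleted libraries, against 176 and 187 CPM in controls (log2 fold change -2.05, adjusted p = 0.0008, edgeR). Both lay below the controls in each Lats-deleted library, as did H2-Q1 (24.4 and 6.01 CPM, against 416 and 380 CPM in controls), H2-Q2, Tap2 and Tapbp. Class I genes have near-identical copies between which reads can be split. Tap1, the neighbour of Psmb9, had 42.8 and 23.4 CPM in Lats-deleted libraries, against 60.9 and 73.8 CPM in controls, and missed the threshold (log2 fold change -1.03, adjusted p = 0.0547, edgeR).

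Of the 16 tested genes of interferon signalling to the immunoproteasome, 3 were lower (18.8%, close to the 15.5% of all genes) and 0 higher, with a median log2 fold change of -0.016. Irf1, an interferon-induced factor that acts on immunoproteasome promoters, had 33.6 and 18.7 CPM in Lats-deleted libraries, against 53.8 and 63.3 CPM in controls (log2 fold change -1.17, adjusted p = 0.0363, edgeR). Ifngr2, a chain of the interferon-gamma receptor (log2 fold change -1.84, adjusted p = 0.00163, edgeR), and Irf8 (log2 fold change -3.05, adjusted p = 0.00158, edgeR) were also lower. Gbp2, a GTPase induced by interferon and chosen after its values were seen, went the other way, with 25.1 and 7.31 CPM in Lats-deleted libraries, against 1.42 and 3.52 CPM in controls, without a call (adjusted p = 0.0528, edgeR). The Irf1 call was lost with plain library totals, without either control library and with cells of at least 2000 counts.

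Among the 10 regulators of proteasome genes, 3 were higher and 2 lower, where 15.3% of all genes were higher and 15.5% lower. Nfe2l1, which drives the constitutive genes, had 86.5 and 85.3 CPM in Lats-deleted libraries, against 52.4 and 36.0 CPM in controls (log2 fold change 0.95, adjusted p = 0.0261, edgeR). Its dimer partners Mafg (log2 fold change 1.33, adjusted p = 0.00965, edgeR) and Mafk (log2 fold change 1.26, adjusted p = 0.0112, edgeR) were higher too. Ddi2, the protease that releases active Nfe2l1, was lower, with 43.9 CPM in both Lats-deleted libraries, against 159 and 151 CPM in controls (log2 fold change -1.82, adjusted p = 0.000955, edgeR). Maf, a large relative of Mafg, had 49.0 and 15.3 CPM in Lats-deleted libraries, against 624 and 562 CPM in controls (log2 fold change -4.22, adjusted p = 0.00196, edgeR). In progenitor-like cells Nfe2l1 did not differ detectably (log2 fold change 0.092, adjusted p = 0.902, edgeR), and 0 of the 4 tested regulators were called by edgeR (1 at an unadjusted p under 0.05) or by DESeq2.

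In the 4 lists of factors that act beside the proteasome, 6 of 42 tested genes were higher over all kept cells (14.3%, close to the 15.3% of all genes) and 0 lower. Of 6 assembly factors, 2 were higher: Akirin2, an adaptor for nuclear import of proteasomes, had 117 and 95.3 CPM in Lats-deleted libraries, against 41.8 and 60.6 CPM in controls (log2 fold change 1.06, adjusted p = 0.0215, edgeR), and Ipo9, the import receptor it works with, had 19.8 and 25.8 CPM in Lats-deleted libraries, against 4.25 and 11.4 CPM in controls (log2 fold change 1.59, adjusted p = 0.0415, edgeR). Pomp, the maturation factor of the core, was not called (log2 fold change -0.25, adjusted p = 0.468, edgeR). Of 15 ubiquitin receptors and deubiquitinases, 3 were higher: the shuttle receptor Rad23b (195 and 199 CPM in Lats-deleted libraries, against 83.5 and 94.0 CPM in controls; adjusted p = 0.0068, edgeR), the deubiquitinase Usp14 (adjusted p = 0.0342, edgeR) and the shuttle receptor Ubqln2 (adjusted p = 0.0479, edgeR). Plaa was the 1 higher gene of 10 tested for the p97 segregase, which extracts ubiquitinated proteins (log2 fold change 1.53, adjusted p = 0.00293, edgeR). Of the 11 genes of ubiquitin and its activation, 0 were called in all kept cells by edgeR (3 at an unadjusted p under 0.05) or by DESeq2.

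In progenitor-like cells, 1 of 4 tested genes of the interferon list and 1 of 11 ubiquitin genes were lower, where 11.1% of all genes were. Irf8 had 0 and 10.3 CPM in Lats-deleted progenitor-like cells, against 120 and 139 CPM in controls (log2 fold change -3.93, adjusted p = 0.00271, edgeR). Rps27a, which encodes ubiquitin fused to a ribosomal protein, had a log2 fold change of -0.68 (adjusted p = 0.0468, edgeR). Of the 8 tested MHC class I genes, 0 were called in this class by edgeR (1 at an unadjusted p under 0.05) or by DESeq2. B2m had 694 and 212 CPM in Lats-deleted cells, against 1125 and 1013 CPM in controls (log2 fold change -1.31, adjusted p = 0.0815, edgeR). In enterocyte-like cells 0 of the 67 tested genes of the 7 lists were called by edgeR (8 at an unadjusted p under 0.05) or by DESeq2.

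**Figure D5:**
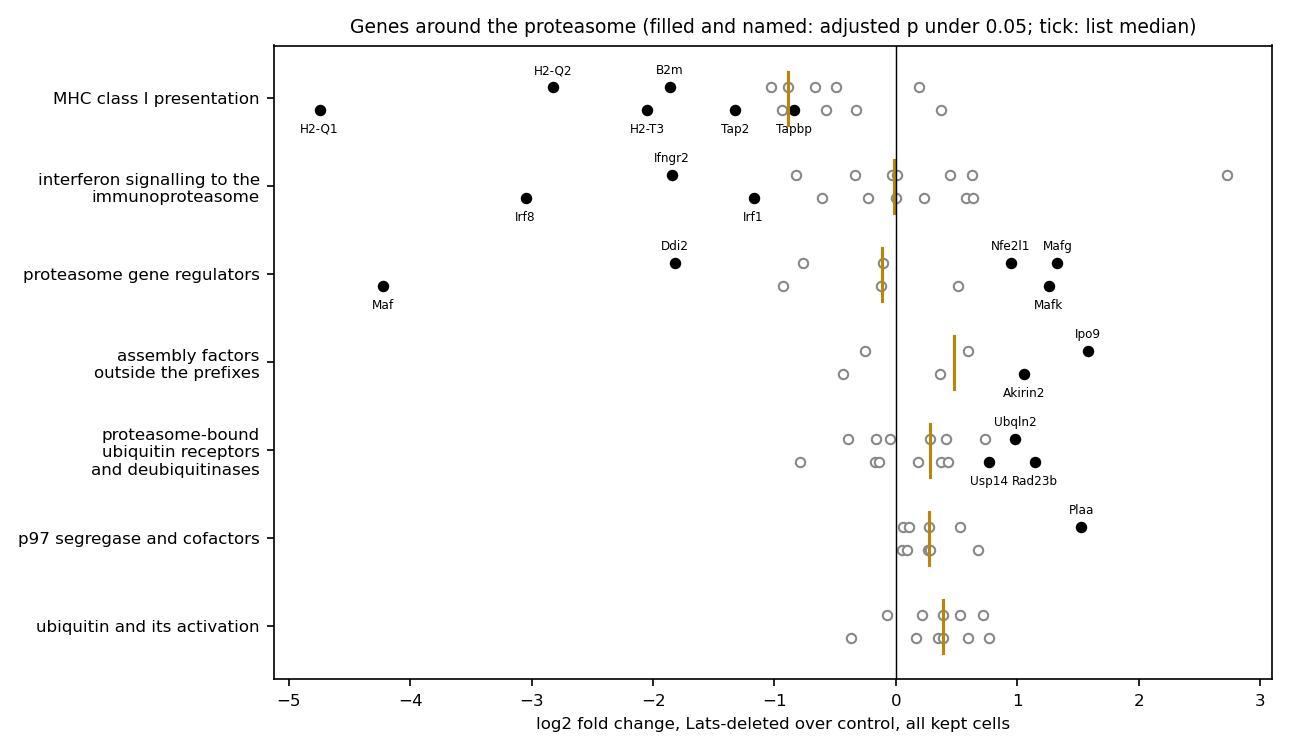
Log2 fold change (Lats-deleted over control, all kept cells, horizontal axis) of the tested genes of 7 lists around the proteasome, filled and named where the adjusted p was under 0.05, with a tick at the median of each list. MHC class I presentation has its median at -0.89 and 6 genes called lower, while the called assembly factors, ubiquitin receptors and Plaa lie above 0.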

How the data were processed

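Gene counts per barcode were deposited by the authors, one table per library, as whole numbers that are not normalized, per the file headers and values. The build mm10 and the tools RSEM 1.3.0, Bowtie 1.1.1.1 and SAMtools 1.3.1 are listed, without a role, per the submitters' processing notes. Strand use, and whether molecular identifiers were counted, are not given in the sources used here.

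Barcodes with at least 1000 counts, 300 genes and at most 30% mitochondrial counts were kept. Cells were clustered (scanpy 1.11.5, Leiden, seed 1, 2000 variable genes without the proteasome genes, 30 components, 15 neighbours) at resolution 1, and at 2 for the classes. A cluster was named from at least 3 markers that were 1.5-fold above other cells. Scrublet called 0 and 7 doublets in Lats-deleted libraries and 3 and 6 in controls, too few to have worked, and none was removed. Counts were summed per library and compared by edgeR's quasi-likelihood test (version 4.0.16; filterByExpr, TMM, Benjamini-Hochberg over all genes, adjusted p under 0.05; R 4.3.3). An SE is the log2 fold change over the root of the F statistic. Plain CPM use unscaled totals. The edgeR tests, but not DESeq2, were also run on simulated data, and those results are not given here. Intervals cover counting error only.

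Members, lists and the naming rule were chosen with earlier results of these data known. The rule names the catalytic pairs, caps and inhibitor, then the 6 largest called increases and decreases with at least 20 CPM and no overlap, and up to 4 genes with the smallest p of each list. Psmd2, Tap1, Tap2, Tapbp, Pomp, Gbp2, Nfe2l1, Rps27a, the leukocyte markers and the members just short of the threshold were named after their values were seen. A few genes of these lists are not reported here and were left out of the list counts. GENCODE M21 holds 97.1% of the symbols and all 50 members, of which 15 overlap another counted gene, 13 on the opposite strand.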

Additional observations from a re-analysis of the deposited data

Results flagged for a closer look

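The difference between Lats-deleted and control libraries was not the same in progenitor-like and enterocyte-like cells for 4 of 39 tested proteasome genes (10.3%, where 12.4% of all genes were called). The log2 fold change in progenitor-like cells minus that in enterocyte-like cells was -2.09 for Psmb8, -3.09 for Psmb9, -2.44 for Psmb10 and -1.96 for Psme1 (interaction of class and genotype in edgeR, blocked by library). Over 6 alternatives chosen after seeing the data, the difference ranged from -2.44 to -1.05 for Psmb8, from -3.25 to -2.40 for Psmb9, from -2.56 to -1.78 for Psmb10 and from -2.16 to -1.17 for Psme1. The call was lost for Psmb8 without Lats-deleted library 2 and without control library 2, for Psmb9 without Lats-deleted library 1, for Psmb10 without control library 1 and for Psme1 without Lats-deleted library 1 or either control library. The Lats-deleted enterocyte-like cells number 39 and 21. The progenitor-like class holds stem-like cells with some cycling markers raised in controls and mostly cycling cells in Lats-deleted libraries. The parts of cell number, cell cycle state and incomplete deletion in these differences were not tested.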

How the results depend on the processing

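Psmb9 and Psmb10 stayed called lower over all kept cells under all 16 alternatives, with log2 fold changes from -3.10 to -2.12 and from -2.40 to -1.83, and Psmb8 ranged from -3.30 to -1.97. Of the proteasome genes over all kept cells, 7 were higher and 6 lower, and the higher count was 23 with plain library totals, 4 with DESeq2, 15 with no filter on low counts, 4 with at least 2000 counts per cell and 12 with stromal-like and stomach-like cells and the unnamed Cldn18-led cluster left out. Leaving out 1 library gave 0 to 27 higher and 2 to 6 lower: 0 and 2 without either control library, 27 and 6 without Lats-deleted library 1, 11 and 6 without Lats-deleted library 2. A group left with 1 library is assumed to vary like the other. The share of all genes called was not counted under the alternatives, so these counts cannot be set against it. In progenitor-like cells, where 1 was higher and 4 lower, DESeq2 gave 0 and 2, thinning to 1000 counts 2 and 1, and leaving out clusters of 1 library 2 higher. Leaving out 1 library there gave 0 to 1 higher and 2 to 4 lower. The count of calls of the class difference, 4, was 2 to 4 when 1 library was left out, and 2 or 3 of the 4 genes kept their call. The ratio of the immunoproteasome to the replaced subunits in controls, 1.85 as a mean of 2 libraries, was 1.92 as a mean over cells and 1.74 in cells of at least 2000 counts. The constitutive share in controls, 0.320%, was 0.318% and 0.326% under the same settings. The immunoproteasome sum of regenerative-like cells, 94.5 CPM, was 105 CPM at the finer clustering.

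The log2 fold change of Psme4 over all kept cells turned negative without Lats-deleted library 2 (leaving out 1 library, -0.054 to 0.24), with cells thinned (-0.30) and with thinning and other-tissue cells and the Cldn18-led cluster left out (-0.24). In enterocyte-like cells Psmb8 turned to -0.14 with no filter and -0.14 without Lats-deleted library 1 (leaving out 1 library, -0.14 to 0.17), Psmb9 to -0.12 when thinned, and Psme1 to -0.23 with no filter, -0.24 without Lats-deleted library 1 (leaving out 1 library, -0.24 to 0.075) and -0.25 when thinned. None of these was a call, and the cause of these changes was not tested. The deviations of same-numbered libraries from their group means had correlations of 0.045 and below. With 2 libraries in a group this is only 1 value per class, which cannot show whether the numbers pair the libraries. With the replicate block, 8 were higher and 6 lower over all kept cells, 1 and 4 in progenitor-like cells and 0 and 0 in enterocyte-like cells. In the enterocyte-like class, settings of at least 2000 counts and at most 15% mitochondrial counts were not run, since a library then held under 20 cells.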
